A study of Homo sapiens with 12 samples.

Results

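The WNT ligands described here are 10 secreted signalling proteins whose genes were read from the deposited count table: WNT3, WNT4, WNT5A, WNT5B, WNT6, WNT7A, WNT7B, WNT9A, WNT10A and WNT11. Each was found by matching its Ensembl identifier, without the version, to its symbol, and each symbol matched 1 row. They are 10 of 57783 rows in the table and 10 of the 16327 genes that had enough counts to be tested. RNA was sequenced from MDA-MB-468, an established triple-negative breast cancer line, that is, one without hormone receptors or HER2 amplification. Cells received 0.5 µM EPZ5676 (pinometostat), which inhibits DOT1L, the enzyme that methylates histone H3 at lysine 79, or the solvent DMSO for 10 days. Flow cytometry then separated cells with and without ALDH1, aldehyde dehydrogenase activity that serves as a marker of stem-like tumour cells. The 4 groups were EPZ5676 ALDH1+, EPZ5676 ALDH1-, DMSO ALDH1+ and DMSO ALDH1-, each with 3 libraries that the labels call biological replicates. All came from this 1 cell line, grown in culture.

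WNT proteins are lipid-modified in the endoplasmic reticulum by the acyltransferase PORCN, carried to the surface by WLS and bound by Frizzled receptors on the same or neighbouring cells. With the co-receptors LRP5 and LRP6, Frizzled binding stabilises beta-catenin, which then drives transcription with TCF/LEF factors. Other WNT signals pass through ROR, RYK or planar polarity proteins and do not need beta-catenin. In the mammary gland WNT signalling is known for its role in duct growth and in maintaining stem cells. WNT3, WNT6, WNT7A, WNT7B, WNT9A and WNT10A are mostly described as beta-catenin ligands, and WNT5A, WNT5B and WNT11 mostly as ligands of the beta-catenin-independent routes. WNT4 does either, depending on the cell, and in the mouse mammary gland it acts downstream of progesterone.

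EPZ5676 libraries held more WNT7A, WNT5B, WNT3, WNT9A and WNT5A mRNA than DMSO libraries in both sorted populations, and less WNT6. WNT11 was also higher, at low counts, but it entered the test only through the EPZ5676 libraries and had to differ. WNT7A had the largest rise, 11.4-fold in ALDH1+ cells and 9.07-fold in ALDH1- cells, and WNT6 the largest fall, 3.62-fold and 2.95-fold. WNT7B and WNT10A did not pass the test in either population, and WNT4 passed it, as lower, in ALDH1+ cells and not in ALDH1- cells. No ligand passed the test between ALDH1+ and ALDH1- cells under either treatment. Over all genes, 0.0184% passed it in EPZ5676 cells and 0% in DMSO cells.

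The 250 bases upstream of 3 of these genes are shown: the ligand that rose most, the one that fell most, and the genomic neighbour of the gene that fell most, which did not pass the test. WNT6 and WNT10A lie next to each other on chromosome 2 and are read in the same direction, while WNT7A lies on chromosome 3. The sequences are RefSeq promoter windows of build GRCh38.p14, written 5′ to 3′ on the strand of the gene, with every CG dinucleotide in capitals. The windows are chr3:13880072-13880321 on the minus strand for WNT7A, chr2:218859555-218859804 on the plus strand for WNT6 and chr2:218880602-218880851 on the plus strand for WNT10A.
WNT7A: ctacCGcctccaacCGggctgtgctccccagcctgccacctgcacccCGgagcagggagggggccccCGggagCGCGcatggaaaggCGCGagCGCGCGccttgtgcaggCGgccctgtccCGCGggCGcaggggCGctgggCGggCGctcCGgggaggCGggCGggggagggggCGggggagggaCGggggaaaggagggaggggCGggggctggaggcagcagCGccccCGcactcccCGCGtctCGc
WNT6: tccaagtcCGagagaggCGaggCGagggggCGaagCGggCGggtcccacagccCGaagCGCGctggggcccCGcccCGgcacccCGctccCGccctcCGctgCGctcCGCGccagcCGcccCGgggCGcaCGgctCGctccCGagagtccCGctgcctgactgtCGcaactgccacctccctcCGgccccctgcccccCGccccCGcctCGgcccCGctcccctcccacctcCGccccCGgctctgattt
WNT10A: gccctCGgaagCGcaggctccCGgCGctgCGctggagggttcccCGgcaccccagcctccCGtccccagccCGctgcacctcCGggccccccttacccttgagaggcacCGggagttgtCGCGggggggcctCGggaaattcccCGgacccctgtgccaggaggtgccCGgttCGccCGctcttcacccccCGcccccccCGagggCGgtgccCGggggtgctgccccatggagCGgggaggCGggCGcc

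These windows hold 29 CG dinucleotides in WNT7A, 32 in WNT6 and 24 in WNT10A, against a median of 11 over 34796 RefSeq promoters of the same length. The strongest riser, the strongest faller and a neighbour that did not pass the test are therefore all CG-rich. RefSeq windows were present for 8 of the 10 ligands, and WNT5A and WNT5B had a pair each. Among the other ligands, WNT9A had 44 CG dinucleotides, WNT4 40 and WNT3 26, while the WNT5A windows had 14 and 18 and the WNT5B windows 10 and 7. The TCF/LEF core CTTTGAT, searched on both strands, was in 0 of these 10 windows and in 2.26% of all promoters. The AP-1 motif TGANTCA was in 0 of 10 windows and in 6.59% of all promoters. The TATA box TATAAA was in 1 window, the second of WNT5B, and in 10.8% of all promoters. None of these matches is evidence about the binding of a factor.

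Library totals ranged from 24348594 to 80195050 counts. Levels are given as CPM, counts per 1000000 counts of a library after TMM scaling, so a level of 3 counts corresponded to 0.0376 to 0.122 CPM. Log2 fold changes, standard errors (SE) and p-values come from edgeR's quasi-likelihood test over all genes with Benjamini-Hochberg adjustment, and a gene was called at an adjusted p under 0.05. All 6 epithelial markers were present, from 74.6 CPM for CDH1 to 9240 CPM for EGFR in EPZ5676 ALDH1+ cells. Their sum, 15155 to 17902 CPM in EPZ5676 libraries and 13823 to 16012 CPM in DMSO libraries, was carried by EGFR, which rose by 0.63 on the log2 scale in ALDH1+ cells. In the same cells CDH1, KRT19, EPCAM and KRT8 had log2 fold changes of -0.55, -0.31, -0.28 and -0.25 and were called lower, and CDH1 had -0.67 and was called lower in ALDH1- cells. Their part in the ligand results was not tested. The libraries numbered 3 differed from the others in several ligands, and the level in each library is given below. In bulk RNA, fewer cells that express a ligand and less RNA per cell cannot be told apart.

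The ligands of the beta-catenin route were taken first. WNT7A, a ligand of epithelia and of the developing limb, had 7.70, 9.06 and 6.30 CPM in libraries 1, 2 and 3 of EPZ5676 ALDH1+ cells and 5.91, 6.42 and 4.84 CPM in EPZ5676 ALDH1- cells. It had 0.582, 1.16 and 0.460 CPM in DMSO ALDH1+ cells and 0.623, 0.646 and 0.614 CPM in DMSO ALDH1- cells. Every EPZ5676 library was therefore several times above every DMSO library, with no overlap. The DMSO libraries rested on 16 to 29 counts each. Library 3 was the lowest in all 4 groups. WNT7A rose by 3.51 on the log2 scale in ALDH1+ cells (SE 0.25, adjusted p = 2.09e-07) and by 3.18 in ALDH1- cells (SE 0.27, adjusted p = 1.61e-06; edgeR).

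WNT3, a ligand known for its role in axis formation in the mouse embryo, had 4.96, 5.18 and 4.95 CPM in EPZ5676 ALDH1+ cells, against 1.49, 1.59 and 1.505 CPM in DMSO ALDH1+ cells. ALDH1- cells had 4.32, 6.03 and 5.91 CPM with EPZ5676 and 1.80, 2.04 and 1.69 CPM with DMSO. The treated libraries lay clear of the DMSO libraries in both populations. WNT3 rose by 1.72 in ALDH1+ cells (SE 0.15, adjusted p = 1.27e-06) and by 1.56 in ALDH1- cells (SE 0.16, adjusted p = 6.3e-06; edgeR). Its neighbour WNT9B had 0 counts in every library.

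WNT9A, a ligand with a role in joint formation, was among the more abundant ligands and had 35.1, 36.6 and 33.9 CPM in EPZ5676 ALDH1+ cells, against 14.2, 16.7 and 17.0 CPM in DMSO ALDH1+ cells. In ALDH1- cells the values were 30.7, 36.1 and 35.8 CPM with EPZ5676 and 17.1, 19.5 and 19.8 CPM with DMSO. All treated libraries were higher than all DMSO libraries. WNT9A rose by 1.14 in ALDH1+ cells (SE 0.10, adjusted p = 6.98e-07) and by 0.87 in ALDH1- cells (SE 0.10, adjusted p = 1.42e-05; edgeR).

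WNT6, a ligand of surface epithelia, went the other way. It had 19.5, 26.1 and 48.7 CPM in EPZ5676 ALDH1+ cells, against 99.6, 99.97 and 140.0 CPM in DMSO ALDH1+ cells. In ALDH1- cells it had 21.3, 32.2 and 47.3 CPM with EPZ5676 and 71.0, 116 and 111 CPM with DMSO. The groups did not overlap, and in both EPZ5676 groups library 3 was the highest. WNT6 fell by 1.86 in ALDH1+ cells (SE 0.31, adjusted p = 0.000385) and by 1.56 in ALDH1- cells (SE 0.31, adjusted p = 0.00206; edgeR). Compared between libraries of the same number, the log2 difference was -2.35, -1.94 and -1.52 in ALDH1+ cells and -1.74, -1.85 and -1.22 in ALDH1- cells for numbers 1, 2 and 3.

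WNT10A, a ligand of teeth, hair and skin that lies beside WNT6, did not pass the test. It had 17.8, 19.9 and 30.9 CPM in EPZ5676 ALDH1+ cells, against 22.3, 27.9 and 30.3 CPM in DMSO ALDH1+ cells. ALDH1- cells had 15.9, 23.3 and 29.6 CPM with EPZ5676 and 17.2, 28.1 and 29.5 CPM with DMSO. The groups overlapped, and library 1 was the lowest in all 4 groups and library 3 the highest. The log2 fold change was -0.24 in ALDH1+ cells (95% interval -0.75 to 0.28, adjusted p = 0.494) and -0.12 in ALDH1- cells (-0.64 to 0.40, adjusted p = 0.782; edgeR). In the fit blocked by replicate number it was -0.26 (adjusted p = 0.0583) and -0.13 (adjusted p = 0.404; edgeR).

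WNT7B, a ligand that in the mouse is expressed in the mammary epithelium, was among the most abundant ligands and had 92.4, 92.3 and 110.0 CPM in EPZ5676 ALDH1+ cells, against 107, 101 and 96.1 CPM in DMSO ALDH1+ cells. In ALDH1- cells it had 91.4, 98.8 and 105 CPM with EPZ5676 and 108, 111 and 110.0 CPM with DMSO. The groups overlapped in ALDH1+ cells and just failed to overlap in ALDH1- cells. The log2 fold change was -0.05 (95% interval -0.21 to 0.12, adjusted p = 0.692) and -0.16 (-0.33 to 0.01, adjusted p = 0.178; edgeR), so a change as large as that of WNT6 or WNT9A lay outside both intervals. Its close relative WNT7A rose by 3.51 and 3.18 in the same libraries.

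**Figure D1:**
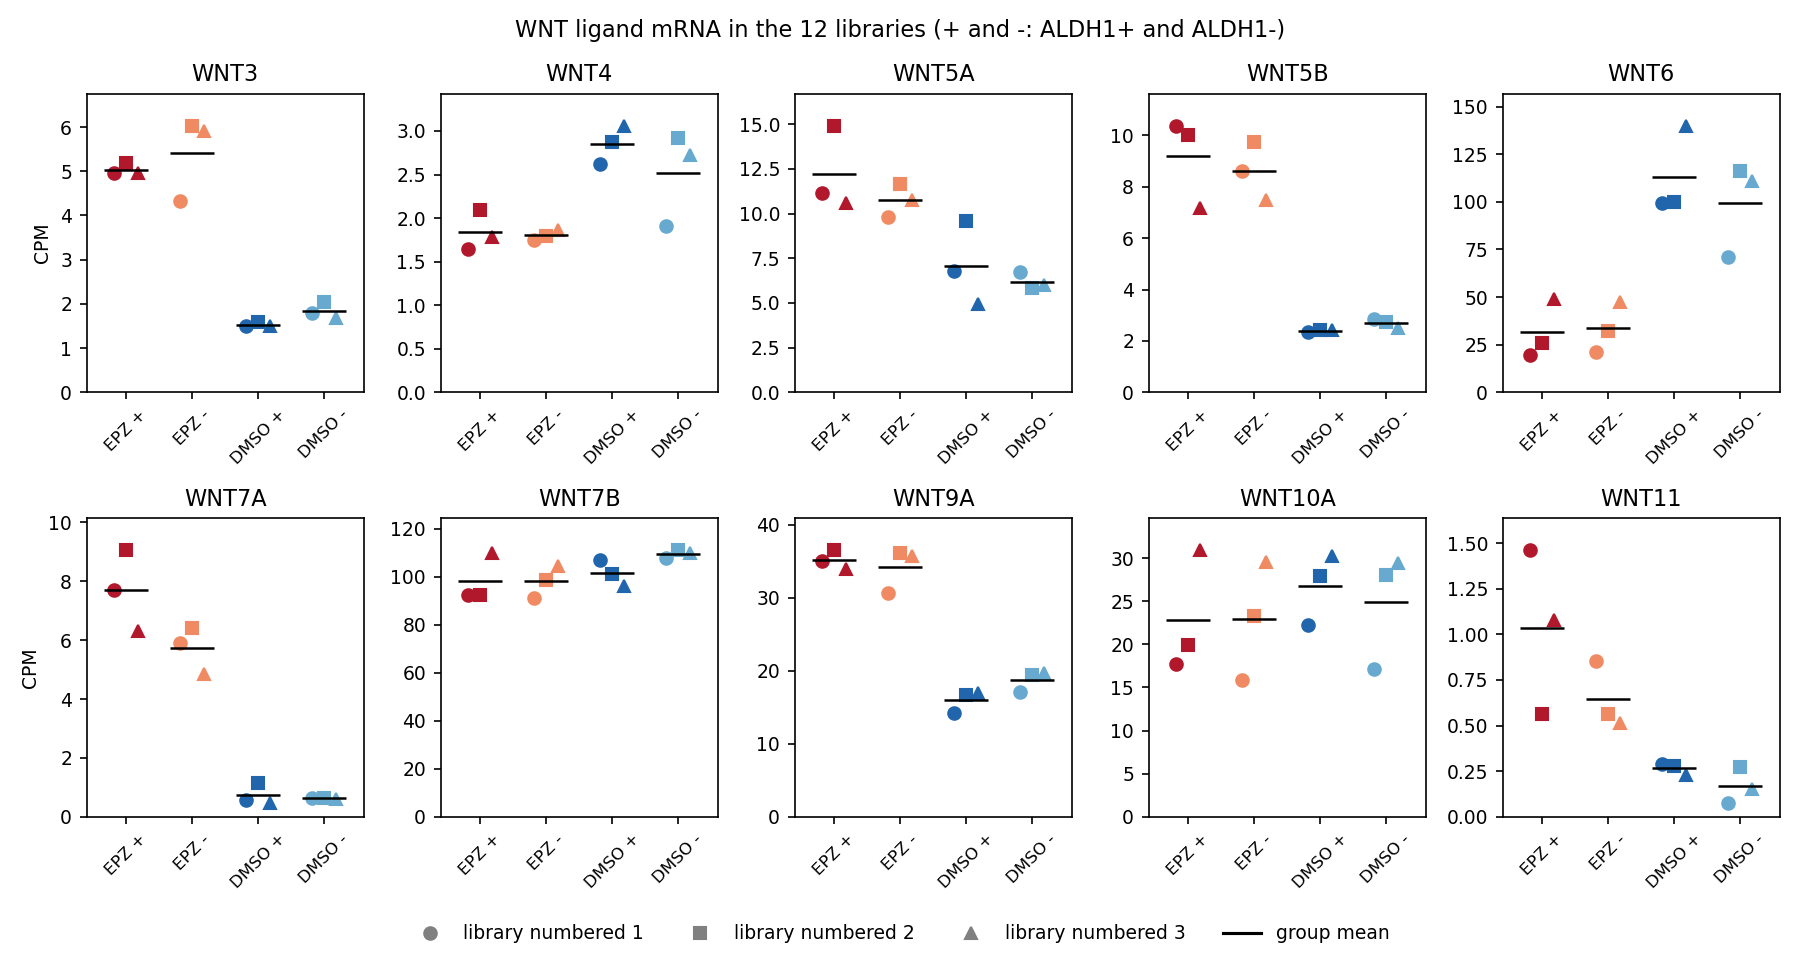
Level of each WNT ligand (CPM, linear axes from 0) in the 12 libraries, by group, with circles, squares and triangles for libraries 1, 2 and 3 and a bar for the group mean. The EPZ5676 libraries lie above the DMSO libraries for WNT3, WNT5A, WNT5B, WNT7A, WNT9A and WNT11 and below them for WNT6.

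Among the ligands of the beta-catenin-independent routes, WNT5B had 10.4, 10.0 and 7.18 CPM in EPZ5676 ALDH1+ cells, against 2.33, 2.43 and 2.41 CPM in DMSO ALDH1+ cells. In ALDH1- cells it had 8.61, 9.75 and 7.49 CPM with EPZ5676 and 2.86, 2.75 and 2.50 CPM with DMSO. Every treated library lay well above every DMSO library, and library 3 was the lowest in both EPZ5676 groups. WNT5B rose by 1.95 in ALDH1+ cells (SE 0.16, adjusted p = 4.98e-07) and by 1.67 in ALDH1- cells (SE 0.16, adjusted p = 4.22e-06; edgeR).

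WNT5A, which signals through ROR receptors and steers cell movement, changed less than WNT5B and varied more in DMSO ALDH1+ cells. It had 11.2, 14.9 and 10.6 CPM in EPZ5676 ALDH1+ cells, against 6.77, 9.60 and 4.92 CPM in DMSO ALDH1+ cells. In ALDH1- cells it had 9.79, 11.6 and 10.8 CPM with EPZ5676 and 6.71, 5.81 and 5.99 CPM with DMSO. The groups did not overlap in either population. In ALDH1+ cells the lowest treated library, at 10.6 CPM, was close to the highest DMSO library, at 9.60 CPM. WNT5A rose by 0.83 in ALDH1+ cells (SE 0.19, adjusted p = 0.00468) and by 0.80 in ALDH1- cells (SE 0.20, adjusted p = 0.00991; edgeR).

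WNT11, a ligand of convergent extension in frog and fish embryos, was near the detection limit. Its counts were 41, 45 and 32 in EPZ5676 ALDH1+ libraries, against 8, 7 and 13 in DMSO ALDH1+ libraries. In ALDH1- cells the counts were 21, 16 and 13 with EPZ5676 and 2, 8 and 4 with DMSO, and the 2 counts lie under 3 counts. Scaled to depth, ALDH1+ cells had 1.46, 0.564 and 1.08 CPM with EPZ5676 and 0.291, 0.279 and 0.230 CPM with DMSO. ALDH1- cells had 0.857, 0.561 and 0.515 CPM with EPZ5676 and 0.0733, 0.272 and 0.154 CPM with DMSO. The groups did not overlap, although library 2 of EPZ5676 ALDH1+ cells was much lower than libraries 1 and 3. WNT11 rose by 1.87 in ALDH1+ cells (SE 0.41, adjusted p = 0.0028) and by 1.90 in ALDH1- cells (SE 0.52, adjusted p = 0.0155; edgeR). All 6 EPZ5676 libraries and 0 of 6 DMSO libraries reached the filter level of 0.359 CPM, so WNT11 entered the test only through the treated libraries and had to differ. The ALDH1- call was lost when DMSO ALDH1- replicate 1 (log2 fold change 1.56, adjusted p = 0.0628), DMSO ALDH1- replicate 3 (1.85, adjusted p = 0.053) or EPZ5676 ALDH1- replicate 1 (1.66, adjusted p = 0.0688) was left out.

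WNT4, the ligand downstream of progesterone, had 1.64, 2.09 and 1.79 CPM in EPZ5676 ALDH1+ cells, against 2.62, 2.87 and 3.06 CPM in DMSO ALDH1+ cells. In ALDH1- cells it had 1.75, 1.79 and 1.86 CPM with EPZ5676 and 1.91, 2.92 and 2.73 CPM with DMSO. Treated libraries were lower in both populations, but DMSO ALDH1- library 1 came close to them. WNT4 fell by 0.61 in ALDH1+ cells (SE 0.17, adjusted p = 0.0129; edgeR). The log2 fold change of -0.48 in ALDH1- cells (SE 0.19) did not pass (adjusted p = 0.0757), and passed in the fit blocked by replicate number (adjusted p = 0.031). That blocked fit called 5260 of 16327 genes in ALDH1- cells, against 3695 in the main fit. The ALDH1+ call was lost without DMSO ALDH1+ replicate 3 (-0.55, adjusted p = 0.06) or EPZ5676 ALDH1+ replicate 1 (-0.54, adjusted p = 0.0505). The difference between the populations was not shown, with an interaction of -0.13 (95% interval -0.67 to 0.41).

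Counted together, 8 of the 10 ligands passed the test in ALDH1+ cells, with 6 higher and 2 lower, where 31.5% of all genes were called, 17.8% higher and 13.7% lower. In ALDH1- cells the count was 7, with 6 higher and 1 lower, where 22.6% of all genes were called, 13.6% higher and 9.04% lower. The 7 ligands called in ALDH1- cells were all called in ALDH1+ cells too. EPZ5676 and DMSO libraries did not overlap for 8 ligands in ALDH1+ cells, as for 41.4% of all genes, and for 9 in ALDH1- cells, as for 39.1%. Both counts include WNT11, which could not overlap because only EPZ5676 libraries reached the filter level. The median log2 fold change of the 10 ligands was 0.98 in ALDH1+ cells, against -0.01 over all genes, and 0.83 in ALDH1- cells, against -0.02. Without WNT11, 7 of 9 ligands were called in ALDH1+ cells with a median of 0.83, and 6 of 9 in ALDH1- cells with a median of 0.80. Of the 3 other WNT genes tested, 1 was called in ALDH1+ cells and 0 in ALDH1- cells. The 10 ligands were chosen with earlier results of these data known, so their shares and medians are no test of WNT ligands as a class.

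**Figure D2:**
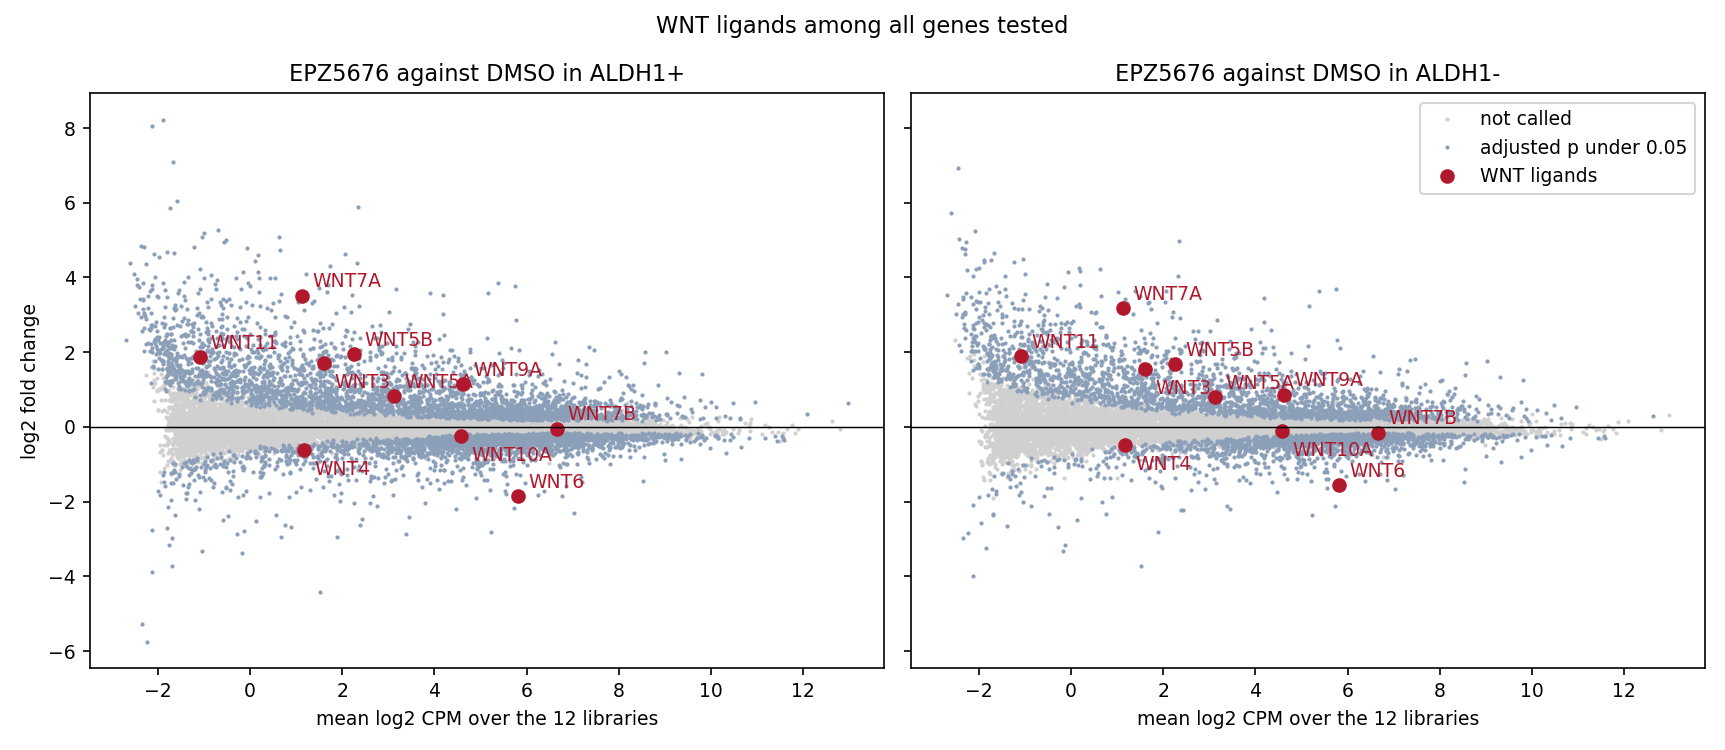
Log2 fold change of EPZ5676 against DMSO (vertical axis) by mean log2 CPM over the 12 libraries for all 16327 genes tested, in ALDH1+ cells (left) and ALDH1- cells (right), with called genes in blue-grey and the 10 WNT ligands in red. WNT7A, at 3.51 and 3.18, is the highest of the ligands and WNT6, at -1.86 and -1.56, the lowest.

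Markers of other cell types differed between treatments at low levels. The 6 fibroblast markers summed to 18.6 to 25.1 CPM in EPZ5676 libraries and 8.89 to 14.2 CPM in DMSO libraries, with DCN and LUM at 0 in all. Nearly all of that sum was COL1A1, at 23.2 CPM with EPZ5676 and 11.6 CPM with DMSO in ALDH1+ cells. The 6 leukocyte markers summed to 9.24 to 16.7 CPM with EPZ5676 and 7.09 to 11.3 CPM with DMSO, with MS4A1 at 0. Most of that sum was CSF1R, at 8.79 CPM with EPZ5676 and 5.23 CPM with DMSO in ALDH1+ cells. CSF1R was called higher in ALDH1+ and ALDH1- cells (log2 fold change 0.75 and 0.67, adjusted p = 0.0054 and 0.0139; edgeR). PTPRC was called higher in both as well (1.53 and 2.06, adjusted p = 0.0194 and 0.00562; edgeR), but reached the filter level in 5 EPZ5676 and 0 DMSO libraries. CD14 was called lower in ALDH1+ cells, at 1.17 CPM with EPZ5676 and 2.60 CPM with DMSO (log2 fold change -1.21, adjusted p = 0.00315; edgeR), and was not called in ALDH1- cells. The 3 endothelial markers present summed to 4.50 to 5.86 CPM with EPZ5676 and 1.78 to 2.79 CPM with DMSO. Most of that sum was KDR, at 4.27 CPM with EPZ5676 and 1.83 CPM with DMSO in ALDH1+ cells. In these cells VWF had 0.423 CPM with EPZ5676 and 0.0865 CPM with DMSO, and CDH5 0.0841 CPM with EPZ5676 and 0.135 CPM with DMSO. The part of these markers in the ligand results was not tested.

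Between sorted populations no ligand was called. In EPZ5676 cells, where 0.0184% of all genes were called, the groups overlapped for all 10 ligands, against 9.57% of all genes without overlap. WNT7A had the smallest p: its ALDH1+ libraries were above the ALDH1- libraries of the same number in 3 of 3 pairs, and the log2 difference was 0.44 (95% interval 0.02 to 0.85, unadjusted p = 0.0422, adjusted p = 0.784; edgeR). In DMSO cells, where 0% of all genes were called and 23.1% did not overlap, 4 ligands did not overlap: WNT3, WNT5B, WNT7B and WNT9A, each lower in ALDH1+ cells, as were 12.4% of all genes. WNT9A had the smallest p there, with a difference of -0.23 (95% interval -0.44 to -0.02, unadjusted p = 0.0328, adjusted p = 0.243; edgeR). At an unadjusted p under 0.05 there were 2904 genes in DMSO cells, of which 1 was a ligand, and 1032 in EPZ5676 cells, of which 1 was a ligand. With the replicate block, which called 1384 genes in DMSO cells and 75 in EPZ5676 cells but 0 ligands, the adjusted p was 0.0676 for WNT9A in DMSO cells and 0.158 for WNT7A in EPZ5676 cells. The widest interval was that of WNT11, from -0.20 to 1.36 in EPZ5676 cells and from -0.64 to 1.85 in DMSO cells.

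The treatment effect was also compared directly between the populations. No ligand and no gene passed the interaction test by edgeR, with 597 genes and 0 ligands at an unadjusted p under 0.05. The smallest p was that of WNT9A, whose log2 fold change in ALDH1+ cells exceeded that in ALDH1- cells by 0.27 (95% interval -0.02 to 0.56, adjusted p = 0.979). WNT7A had 0.33 (-0.52 to 1.18) and WNT6 -0.30 (-1.22 to 0.63).

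**Figure D3:**
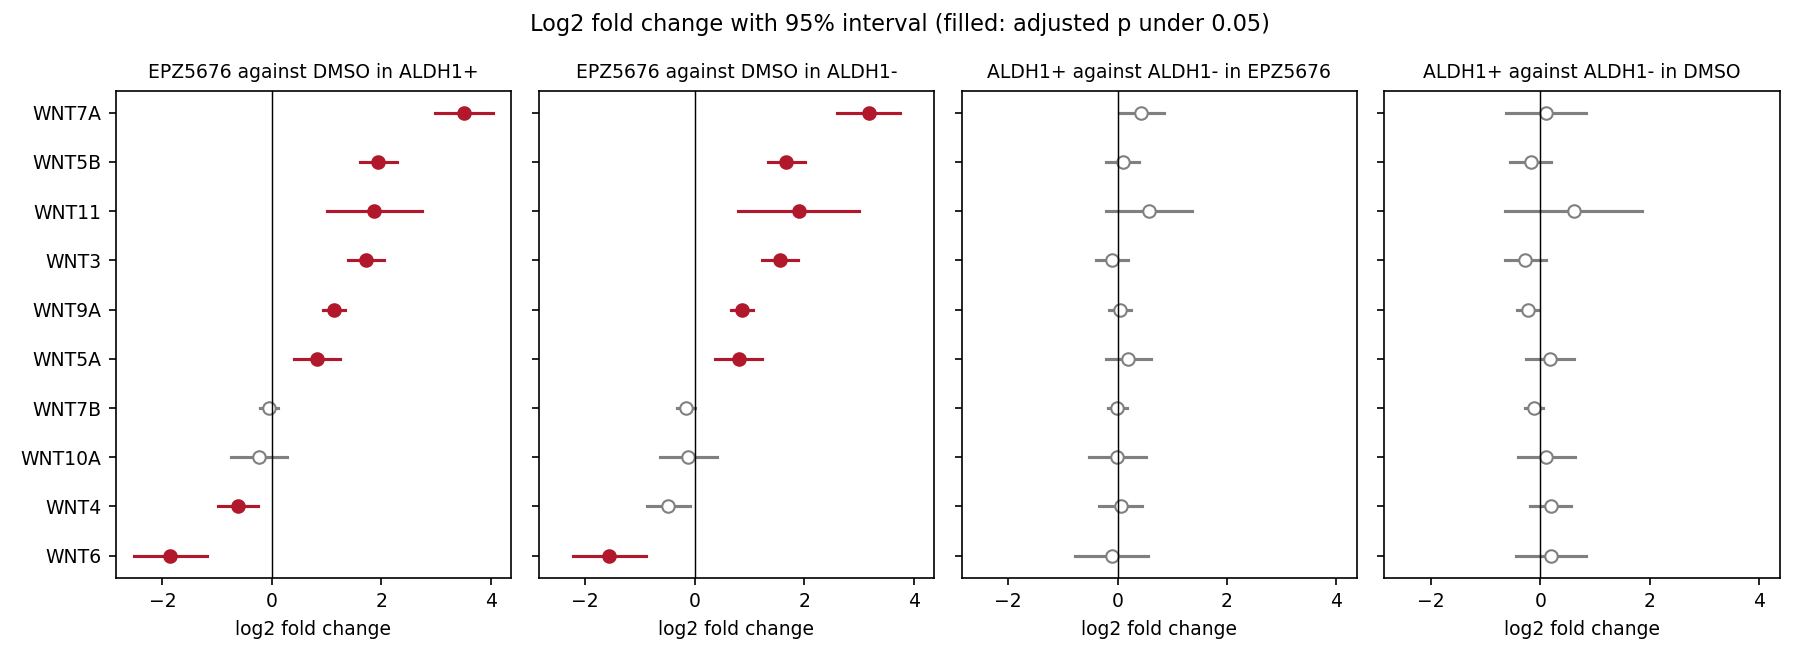
Log2 fold change of each ligand with its 95% interval in the 4 comparisons, filled red where the adjusted p was under 0.05. Calls occur in the panels of EPZ5676 against DMSO, with 8 in ALDH1+ cells and 7 in ALDH1- cells, and 0 in the panels of ALDH1+ against ALDH1-. Over all genes the shares called were 31.5% and 22.6%, and between populations 0.0184% in EPZ5676 cells and 0% in DMSO cells.

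Levels of different ligands were compared per kilobase of exon. In EPZ5676 ALDH1+ cells WNT7B led with 19.4 ± 2.0 CPM per kilobase (SD, n = 3), next to WNT6 with 18.5 ± 9.0, and their ranges overlapped. They were followed by WNT9A with 8.86, WNT10A with 6.70, WNT5B with 2.13, WNT7A with 1.68, WNT5A with 1.65, WNT3 with 1.16, WNT11 with 0.431 and WNT4 with 0.406. WNT9A and WNT10A overlapped as neighbours in this order, as did WNT5B, WNT7A and WNT5A, and WNT11 and WNT4. In EPZ5676 ALDH1- cells WNT6 (19.7) and WNT7B (19.5) were again level, and WNT3 (1.25) and WNT7A (1.25) likewise. Between these pairs stood WNT9A with 8.61, WNT10A with 6.72, WNT5B with 2.00 and WNT5A with 1.45, and below them WNT4 with 0.398 and WNT11 with 0.268. WNT9A and WNT10A overlapped, and so did WNT5A, WNT3 and WNT7A.

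In DMSO ALDH1+ cells the order was different at the top: WNT6 had 66.5 ± 14 CPM per kilobase, clear of WNT7B with 20.1 ± 1.1, and WNT10A with 7.85 stood above WNT9A with 4.03. The less abundant ligands were WNT5A with 0.959, WNT4 with 0.630, WNT5B with 0.555 and WNT3 with 0.353, of which WNT5A and WNT4 overlapped. In DMSO ALDH1- cells WNT6 had 58.3 ± 14, WNT7B 21.7, WNT10A 7.30 and WNT9A 4.73. Below them were WNT5A with 0.834, WNT5B with 0.628, WNT4 with 0.556 and WNT3 with 0.425, and the last 3 of these overlapped as neighbours. WNT7A with 0.160 in DMSO ALDH1+ cells and 0.137 in DMSO ALDH1- cells was the ninth of 10, above WNT11 with 0.111 and 0.0693. In DMSO ALDH1+ cells their ranges overlapped, at 0.101 to 0.252 for WNT7A and 0.0958 to 0.121 for WNT11.

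Summed over the 10 ligands, the level per kilobase was 60.9 ± 12 in EPZ5676 ALDH1+ cells and 61.1 ± 11.6 in EPZ5676 ALDH1- cells, against 101 ± 13.6 in DMSO ALDH1+ cells and 94.6 ± 17.1 in DMSO ALDH1- cells (SD, n = 3 each). The treated libraries ranged from 49.3 to 74.5 and the DMSO libraries from 74.96 to 117, so the sum per kilobase was lower in every treated library, by a narrow margin between the closest libraries. Without division by length, the sums overlapped, at 190.4 to 256 CPM in EPZ5676 libraries and 227 to 296 CPM in DMSO libraries. WNT6 made up 29.2% of the sum in EPZ5676 ALDH1+ cells and 31.5% in EPZ5676 ALDH1- cells, against 65.3% in DMSO ALDH1+ cells and 61.0% in DMSO ALDH1- cells. WNT7B made up 32.3% in both EPZ5676 groups, against 20.2% and 23.5% in DMSO ALDH1+ and ALDH1- cells. The sum of the 8 ligands other than WNT6 and WNT7B went the other way, at 18.7 to 24.1 in EPZ5676 libraries and 11.9 to 16.2 in DMSO libraries.

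**Figure D4:**
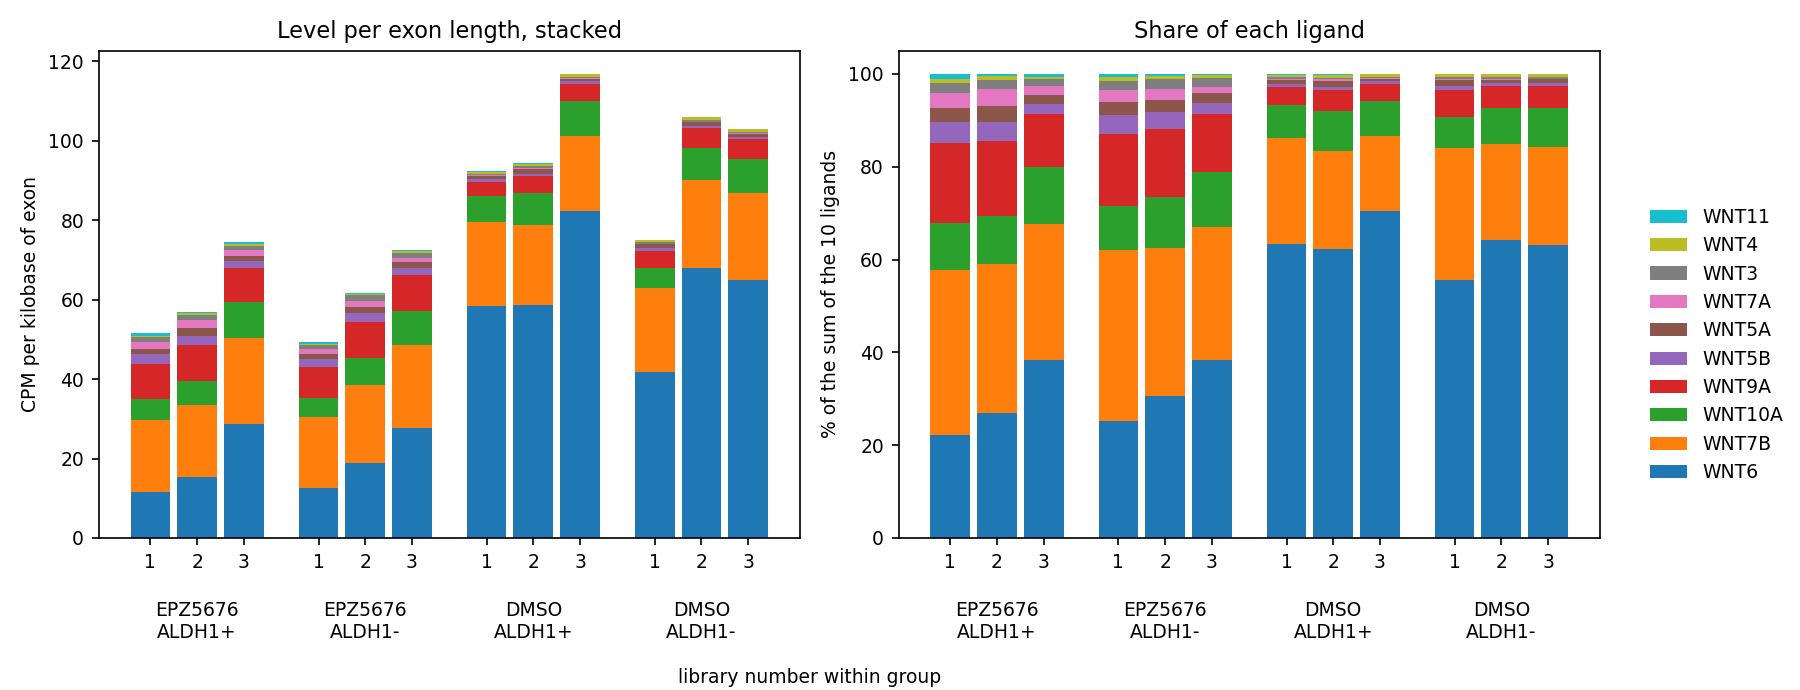
Stacked levels of the 10 ligands per kilobase of exon (left) and each ligand's percentage of their sum (right) in each library, by group and library number. WNT6, at the bottom of the bars, holds 22.2 to 38.4% in EPZ5676 libraries and 55.6 to 70.4% in DMSO libraries.

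Of the 9 other WNT genes, 3 had enough counts to be tested and the remaining 6 had at most 12 counts in any library, with WNT9B and WNT16 at 0. WNT2B was called in ALDH1+ cells, at 2.10, 2.37 and 2.46 CPM with EPZ5676 and 1.24, 0.757 and 1.40 CPM with DMSO (log2 fold change 0.98, SE 0.22, adjusted p = 0.00358; edgeR), and had 0.69 in ALDH1- cells (adjusted p = 0.0658). WNT3A and WNT10B were not called in either population.

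The receptors were mixed. Over all genes, 17.8% were called higher and 13.7% lower in ALDH1+ cells, and 13.6% and 9.04% in ALDH1- cells. Of 14 tested receptors and co-receptors, 5 were higher and 3 lower in ALDH1+ cells, with a median of 0.03, and 5 higher and 3 lower in ALDH1- cells, with a median of 0.06. The Frizzled receptors FZD7, FZD2 and FZD5 rose by 0.68, 0.63 and 0.55 in ALDH1+ cells and by 0.73, 0.44 and 0.51 in ALDH1- cells. PTK7, a co-receptor of planar polarity signalling, fell by 0.50 in ALDH1+ cells and by 0.54 in ALDH1- cells.

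Of 4 tested genes of WNT secretion and processing, 3 were higher in ALDH1+ cells and 2 in ALDH1- cells. Over all genes, 17.8% were called higher in ALDH1+ cells and 13.6% in ALDH1- cells. PORCN, which lipidates WNT proteins, rose by 0.74 in ALDH1+ cells (35.4 CPM with EPZ5676 and 21.2 CPM with DMSO) and had 0.33 in ALDH1- cells, where it was not called. GPC4, a cell surface proteoglycan, rose by 0.94 in ALDH1+ cells and 1.06 in ALDH1- cells, and TINAGL1, a secreted matrix protein, by 0.29 and 0.30. The carrier WLS had 0.05 and 0.11 and was not called.

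Secreted antagonists were mixed as well, with 2 higher and 1 lower of 5 tested in both populations, beside 31.5% of all genes called in ALDH1+ cells and 22.6% in ALDH1- cells. DKK1, which blocks LRP5 and LRP6 and is itself a beta-catenin target, rose by 2.13 in ALDH1+ cells (318 ± 51.9 CPM with EPZ5676 and 72.5 ± 3.9 CPM with DMSO) and by 1.80 in ALDH1- cells (337 ± 44.4 CPM with EPZ5676 and 96.8 ± 25.4 CPM with DMSO). SFRP1, a decoy that binds WNT proteins, fell by 0.62 in ALDH1+ cells and 0.41 in ALDH1- cells. DKK3, the other gene counted as higher, had 0.926 CPM with EPZ5676 and 0.0479 CPM with DMSO in ALDH1+ cells, and 0.676 CPM with EPZ5676 and 0.268 CPM with DMSO in ALDH1- cells. It too reached the filter level in 6 EPZ5676 and 0 DMSO libraries and had to differ.

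Of 22 genes of the beta-catenin pathway core, 5 were higher and 5 lower in ALDH1+ cells (median 0.07), and 2 higher and 4 lower in ALDH1- cells (median -0.06), where 31.5% and 22.6% of all genes were called. The transcription factor TCF7L2 fell by 0.70 in ALDH1+ cells and 0.50 in ALDH1- cells. TCF7L1, of the same family, fell by 0.49 and 0.36. The kinase gene GSK3B rose by 0.39 in ALDH1+ cells and had 0.19 in ALDH1- cells, where it was not called. The co-repressor TLE1 rose by 0.35 in ALDH1+ cells and by 0.37 in ALDH1- cells. PYGO1, a beta-catenin co-activator, had 1.25 CPM with EPZ5676 and 0.0972 CPM with DMSO in ALDH1+ cells, and 1.04 CPM with EPZ5676 and 0.158 CPM with DMSO in ALDH1- cells. It reached the filter level in 6 EPZ5676 and 0 DMSO libraries, so it entered the test only through the treated libraries and had to differ. Of 4 tested R-spondin module genes 0 were called in ALDH1+ cells and 1, LGR4, in ALDH1- cells (0.31).

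Of 9 tested beta-catenin targets, 2 were higher and 3 lower in each population, beside 31.5% of all genes called in ALDH1+ cells and 22.6% in ALDH1- cells. AXIN2, a feedback inhibitor often used as a readout of the pathway, fell by 1.33 in ALDH1+ cells (5.11 ± 2.1 CPM with EPZ5676 and 12.5 ± 3.0 CPM with DMSO, SE 0.29, adjusted p = 0.00285; edgeR) and had -1.28 in ALDH1- cells (4.96 ± 2.0 CPM with EPZ5676 and 12.01 ± 3.0 CPM with DMSO, SE 0.30, adjusted p = 0.00662). NKD1, a further feedback inhibitor, fell by 0.61 and 0.77, and MYC by 0.52 and 0.43. CCND1, which encodes cyclin D1, rose by 0.90 and 0.68. The list therefore had no common direction, and DKK1 stands in it as well as among the antagonists.

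Of 13 planar polarity and noncanonical genes, 7 were higher and 2 lower in ALDH1+ cells (median 0.41), and 6 higher and 3 lower in ALDH1- cells (median 0.25). Over all genes 17.8% were higher and 13.7% lower in ALDH1+ cells, and 13.6% higher and 9.04% lower in ALDH1- cells. The polarity genes PRICKLE1 and VANGL2 rose by 0.96 and 1.15 in ALDH1+ cells and by 0.88 and 0.98 in ALDH1- cells. The polarity cadherins CELSR1 and CELSR2 fell by 0.75 and 0.64 in ALDH1- cells, where DAAM1, a formin, rose by 0.57. In ALDH1+ cells CELSR1 had -0.49 and DAAM1 0.41, both called, while CELSR2 had -0.26 and was not called. NFATC2, a calcium-regulated transcription factor, rose by 0.80 in ALDH1+ cells and by 0.56 in ALDH1- cells. Its relative NFATC1 had 0.746 CPM with EPZ5676 and 0.202 CPM with DMSO in ALDH1+ cells and also passed the filter in 6 EPZ5676 and 0 DMSO libraries. No gene of these 8 lists was called between ALDH1+ and ALDH1- cells or in the interaction. Hardly any gene was: 0% of all genes in DMSO cells, 0.0184% in EPZ5676 cells and 0% in the interaction.

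**Figure D5:**
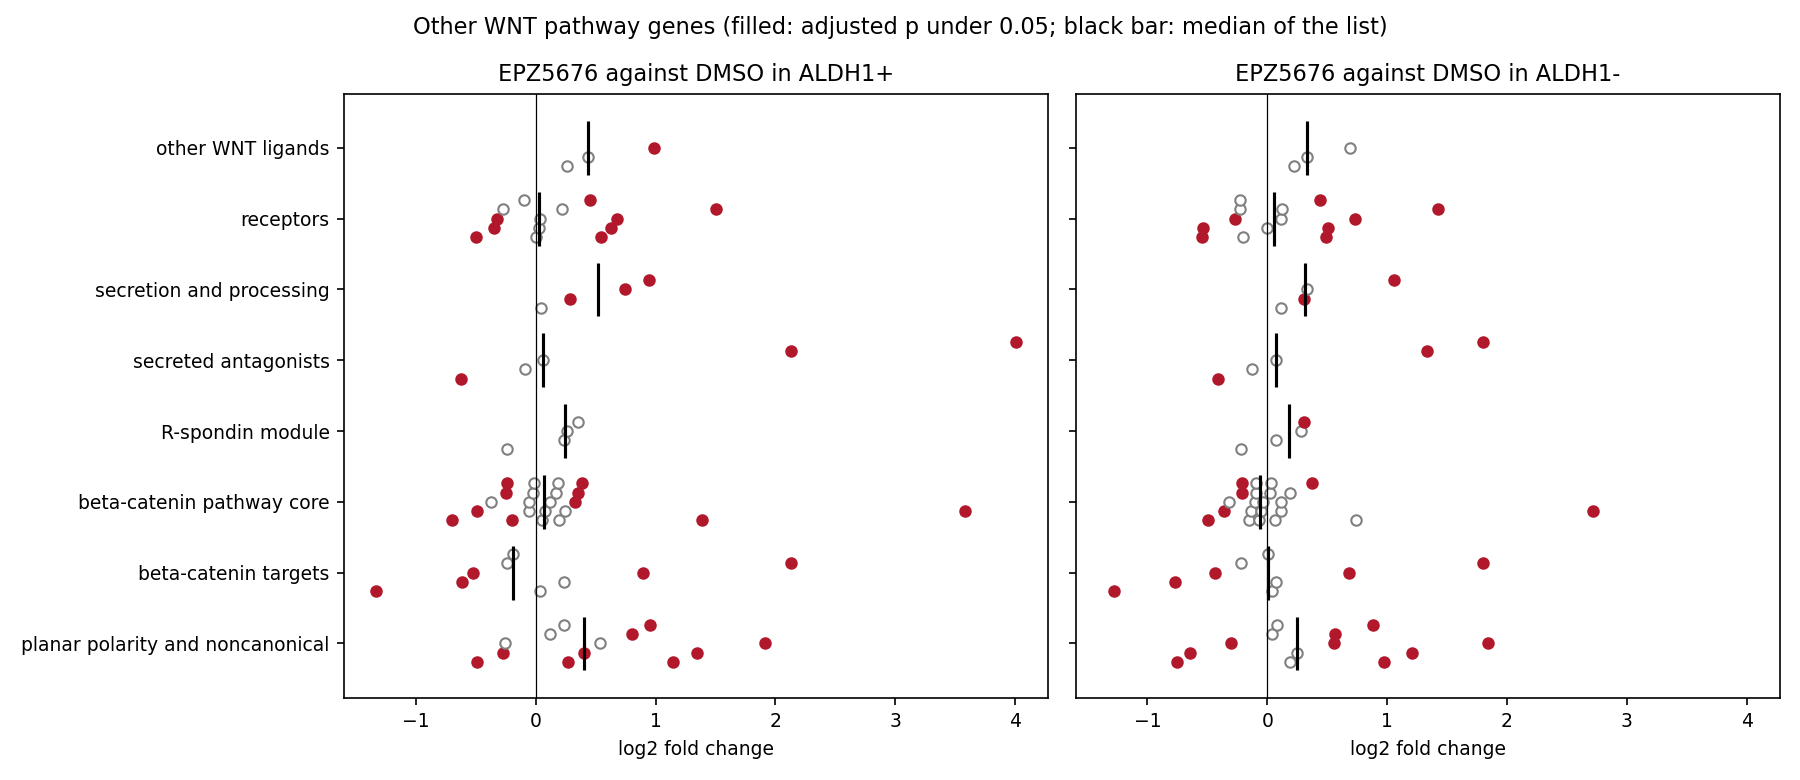
Log2 fold change of EPZ5676 against DMSO for the tested genes of 8 lists of WNT pathway genes, in ALDH1+ cells (left) and ALDH1- cells (right), filled where the adjusted p was under 0.05, with a bar at the list's median. DKK1 (2.13 and 1.80) stands to the right and AXIN2 (-1.33 and -1.28) to the left in both panels.

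The gene whose log2 CPM followed each ligand most closely over the 12 libraries was looked up among 12123 genes. These were ZBED2 for WNT7A (r = 0.998), GAD1 for WNT5B (0.995), CD22 for WNT3 (0.995), CLIP4 for WNT9A (0.994), RECQL4 for WNT6 (0.989), SLC20A1 for WNT5A (0.962), UBXN2A for WNT4 (0.960), ASCC1 for WNT10A (0.958), MCU for WNT11 (0.956) and RFWD3 for WNT7B (0.943). The libraries share the 2 treatments, so each r includes the contrast between them. With the group means removed, r ranged from 0.79 for WNT3 and CD22 to 0.96 for WNT10A and ASCC1.

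Some counts are uncertain for reasons of annotation. WNT4, WNT5A, WNT5B and WNT11 overlap a gene on the opposite strand, and WNT9A overlaps a microRNA gene on its own strand. Strand use in counting is not given in the sources used here. WNT3, WNT6, WNT7A, WNT7B and WNT10A overlap no annotated gene.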

How the data were processed

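Bulk RNA sequencing covered 12 libraries, 3 in each of 4 groups. Libraries were made with a directional kit, per the labels' protocols. Trim Galore, STAR and build hg19 are named without versions, per the submitters' processing notes. Which program counted reads, with which strand setting and annotation, is not given in the sources used here. Counts per gene were deposited by the authors as whole numbers without normalization, and 51959 of its 57783 identifiers matched a symbol. P-values measure the spread between these libraries.

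Counts were tested in R 4.3.3 with edgeR 4.0.16. Genes were filtered with filterByExpr by group, scaled by TMM and fitted with 1 term per group over all 12 libraries in 1 quasi-likelihood model. Adjustment was by Benjamini-Hochberg over 16327 genes with a threshold of 0.05. SE is the log2 fold change divided by the square root of its F statistic, and intervals are at 95%. The procedure was tested on simulated data. Lengths and overlaps come from GENCODE annotation of another build, so no gene coordinates were carried over, and promoters from RefSeq GRCh38.p14. Deviations from group means correlated between libraries of the same number in different groups in all 18 pairs (0.17 to 0.65 over 12354 genes). Between libraries of different number the range was -0.66 to 0.22, and these ranges overlapped slightly. The numbers were therefore taken as a likely pairing, which the main fit left out and the replicate block used. From each pathway list up to 4 called genes of smallest p were named for each comparison, WLS and NKD1 being named outside this rule after their values were seen, and likeness was sought among genes whose mean log2 CPM reached 1. The members and lists were chosen with earlier results of these data known. Alternatives were RLE scaling, total counts, no filter, a filter of 1 CPM in 3 libraries, DESeq2 1.42.0, the replicate block and each library left out.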

Additional observations from a re-analysis of the deposited data

How the results depend on the processing

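No ligand changed direction among its called values under any setting run. RLE scaling, total counts, no filter and DESeq2 left the side of the threshold unchanged for all ligands they gave a value for. DESeq2 gave no adjusted p for 5 ligand values. The 1 CPM filter removed WNT11, leaving 7 of 9 ligands called in ALDH1+ cells and 6 of 9 in ALDH1- cells. Among all 14043 genes that passed this filter, 4634 and 3339 were called. Leaving out 1 library gave 7 to 8 and 6 to 7 ligands, with 3793 to 5450 and 2604 to 3967 calls over all genes. The replicate block gave 8 and 8 ligands, adding WNT4 in ALDH1- cells and changing no other ligand call. With this block 6820 and 5260 of 16327 genes were called, against 5141 and 3695 in the main fit. Without the 4 libraries numbered 3, a setting chosen after seeing the data, 6 and 6 ligands were called. Of all 16385 genes tested then, 4849 were called in ALDH1+ cells and 3596 in ALDH1- cells. The ligand calls lost were WNT4 (-0.52, adjusted p = 0.109) and WNT11 (1.62, adjusted p = 0.0508) in ALDH1+ cells and WNT11 (1.98, adjusted p = 0.0593) in ALDH1- cells. Without DMSO ALDH1- replicate 1, WNT4 in ALDH1- cells was called (-0.65, adjusted p = 0.0184). Over all genes, ALDH1+ against ALDH1- in DMSO had 0 calls, against 948 with no filter, 298 by DESeq2, 1384 with the replicate block and 0 to 1 with a library left out. In EPZ5676 it had 3, against 235 with no filter, 31 by DESeq2, 75 with the replicate block, 61 without the libraries numbered 3 and 0 to 21 with a library left out. The interaction had 0, against 37 with no filter and 0 to 0 with a library left out. The cause was not tested. Low counts limit WNT11 and, in DMSO, WNT7A.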
